A study of Mus musculus with 14 samples.

Results

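Cytoplasmic ribosomal protein genes were taken as all genes whose symbol begins with Rpl or Rps and a number, together with Rplp0, Rplp1 and Rplp2, and which had a probe set annotated with that symbol alone. The rule gave 60 of the 19938 genes measured, from 212 probe sets, and each gene was read from its brightest probe set. They comprised 30 genes of the large subunit, 20 of the small subunit, 3 genes of the ribosomal stalk and 7 paralogs, which are duplicate genes kept beside a main copy. Rpl32l was put among the paralogs by its symbol and is not in the paralog list used for list counts. A further 17 symbols that fit the rule, Rpl3, Rpl11, Rpl15 and Rps27 among them, were annotated only to probe sets shared with other genes and are not members. Of the 60 genes, 59 are listed as protein coding and Rps4l is listed as a transcribed pseudogene.

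The arrays held total RNA of BH1-Bcl2-Ik1ER cells. The parent line, BH1, consists of mouse pre-B cells without Ikaros, into which retroviruses brought Bcl2 and Ikaros joined to an estrogen receptor before cells carrying both were sorted. The fusion protein is switched on by 4-hydroxytamoxifen (4OHT), used at 100 nM, and IL-7 came from medium conditioned by J558L cells, so that withdrawal took away everything else in that medium as well. The 7 groups were time 0, without 4OHT and in the IL-7 medium that the labels give for routine culture, 6 h with IL-7 and 4OHT, 6 h with 4OHT and no IL-7, and the 4 combinations of IL-7 and 4OHT at 24 h, each with 1 array from each of 2 independent experiments. Bcl2 and the fusion were present in every group, all cells came from 1 line, and no group was cultured for 6 h without 4OHT. Defining pre-B genes were well detected, with 7 measured markers (Cd79a, Cd79b, Vpreb1, Igll1, Pax5, Ebf1 and Blnk) at group means of 9.88 to 13.9 on the log2 scale against a median of 7.33 over all values. Markers of T cells, myeloid cells and red cells lay between 5.19 and 8.25. Of 4 plasma cell markers Xbp1 (11.1 to 11.7) and Sdc1 (7.86 to 9.04) lay above that median, as did 3 of 5 stromal markers (at most 8.27), and their part in the results was not tested.

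Ribosomal proteins are needed in near equal numbers, apart from the stalk proteins, and are imported into the nucleolus, where they join ribosomal RNA. Their mRNAs are among the most abundant of a growing cell, and most begin with a C followed by a run of pyrimidines, the terminal oligopyrimidine tract, through which mTORC1 and Larp1 set how much of the message is translated. In lymphocyte precursors growth factor signals such as that of IL-7 are known to drive ribosome production. The arrays measured the amount of mRNA and not its translation. In such bulk RNA, fewer cells expressing a gene and less of its RNA per cell cannot be told apart.

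The annotated start of the mRNA, where such a tract would lie, is shown for 6 members in the RefSeq sequence of build GRCm38.p6, from 10 bases before the annotated start to 20 bases from it, in coding orientation. These 6 were picked to show members that fell without IL-7 (Rpl27a, Rps12, Rps2), members that did not pass in any comparison (Rplp2, Rpl38) and the member that rose (Rpl3l). Capitals mark the letters CTTTC where they occur, and other runs of pyrimidines, such as that of Rps12, are not marked.
Rpl27a, chr7:109519185-109519214, plus strand: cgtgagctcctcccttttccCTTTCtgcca
Rps12, chr10:23787190-23787219, minus strand: tcatgcggccaccgccggccttttcccctg
Rps2, chr17:24720053-24720082, plus strand: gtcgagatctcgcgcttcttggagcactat
Rplp2, chr7:141447641-141447670, plus strand: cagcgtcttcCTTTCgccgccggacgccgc
Rpl38, chr11:114668570-114668599, plus strand: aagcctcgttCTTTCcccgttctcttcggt
Rpl3l, chr17:24727816-24727845, plus strand: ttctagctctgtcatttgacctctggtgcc

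Promoter sequence was at hand for 48 of the 60 members. The letters CTTTC, searched on the coding strand of this 30-base window, occurred in 16.7% of these members and in 4.13% of 17491 protein-coding genes. Over the 300 bases around the start and on either strand, CCGGAAG, a sequence bound by ETS factors, occurred in 37.5% of members and in 12.9% of all protein-coding genes. CACGTG, the E-box bound by MYC, occurred in 10.4% of members and in 8.91% of all genes. Among the 10 members with a promoter that were lower at 24 h without IL-7 under 4OHT, CTTTC was found in 20%, CCGGAAG in 40% and CACGTG in 0.0%, against 15.8%, 36.8% and 13.2% of the other 38. These shares describe letters in a window, and no match says nothing of a factor. Rpl3l has a further annotated start, which is not shown.

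Most of the ribosomal protein genes moved by small log2 amounts. Of the 60 members 44 passed the test in none of 9 comparisons, where passing means a limma adjusted p under 0.05 over all 19938 genes. The range between the highest and the lowest of a member's 7 group means was 0.17 log2 at the median, under 0.2 for 33 members and 0.5 or more for 7. The 7 were Rpl12, Rpl3l, Rpl14, Rpl30, Rps27l, Rps12 and Rpl13. The group at 24 h with IL-7 and 4OHT was the highest for 27 members, and the group at 24 h with 4OHT and no IL-7 was the lowest for 23. These counts and ranges were not taken over all genes, so whether they are particular to the members was not tested. Shares of all genes are given with each comparison below. The SE of a member's difference between 2 groups had a median of 0.077 log2 at 6 h.

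**Figure D1:**
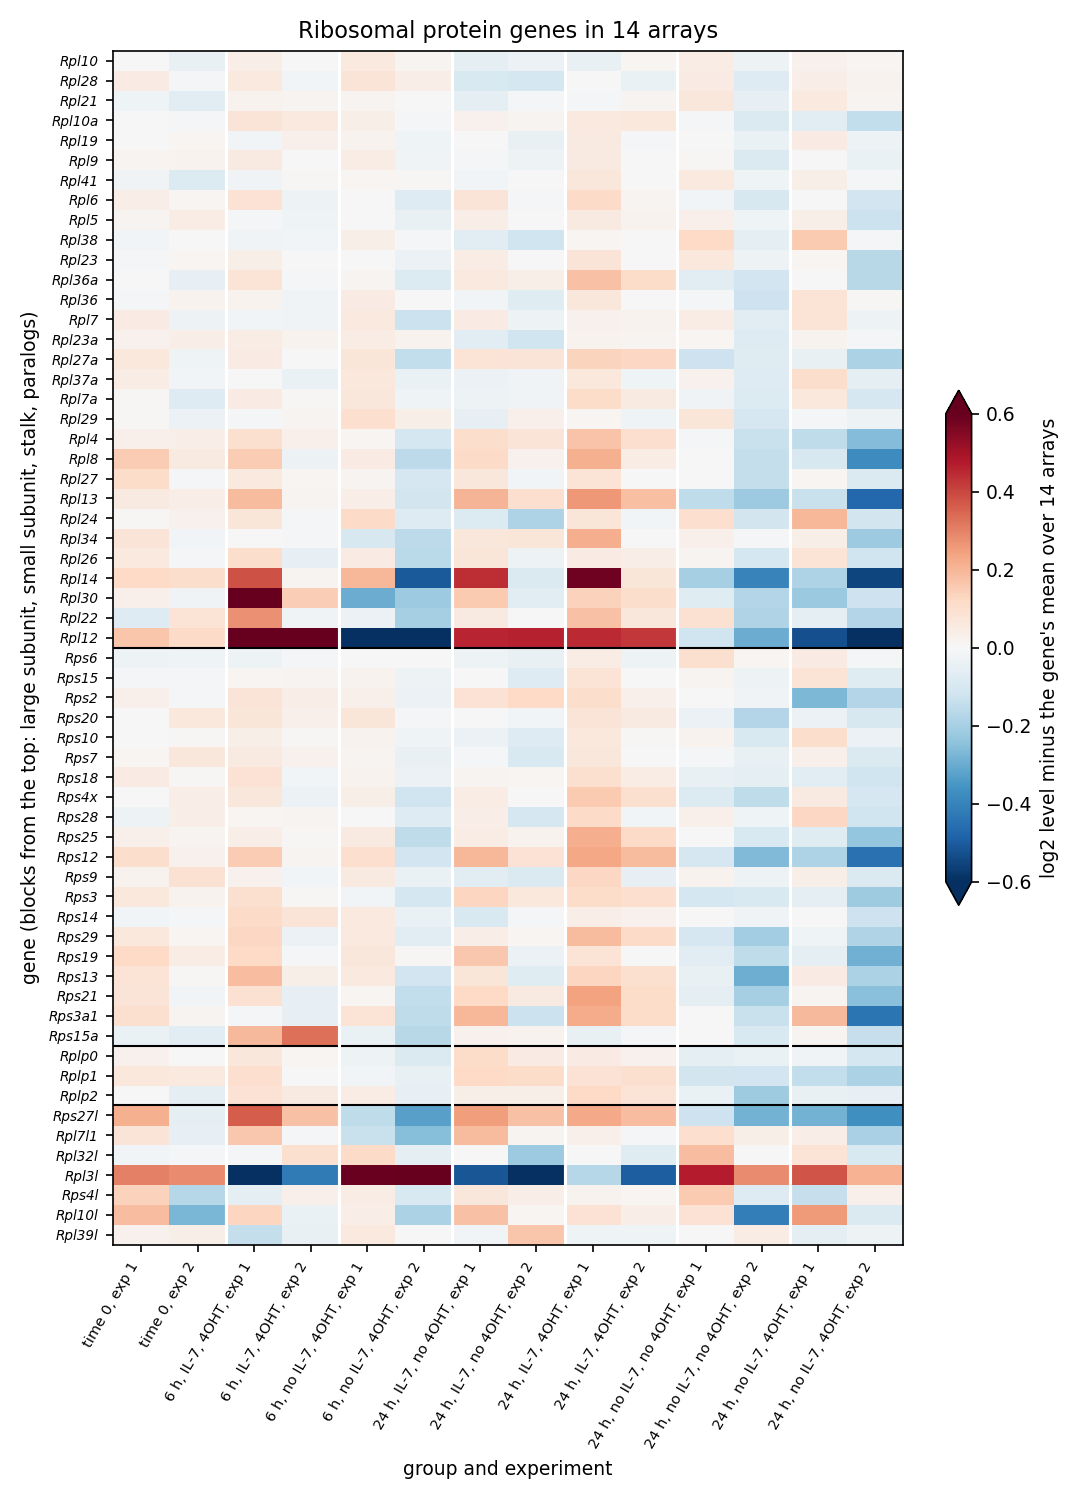
Each row is 1 of the 60 genes and each column 1 of the 14 arrays, ordered by group and experiment. Colour gives the log2 level minus the gene's mean over all arrays, and values beyond 0.6 in either direction have the end colour. Rpl12 and Rpl3l have the strongest colours, with opposite signs, and most rows stay pale, with a range of group means under 0.2 for 33 members.

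The 2 experiments differed across the family. In the fit with an experiment term, 59 of the 60 members read lower in experiment 2, by 0.07 log2 at the median, and 15 of them passed. Over all genes 11.9% passed as lower and 6.8% as higher in experiment 2. Rpl14 differed most, by -0.38 ± 0.07 (SE, limma adjusted p = 0.0028). The number of members with the same sign in both experiments is therefore given below for withdrawal, and the fit with the experiment as a block is quoted where it changes a call of a named member or a count by over 1.5 times.

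IL-7 withdrawal for 6 h, with 4OHT in both groups, lowered 4 members and raised 1. Lower were Rpl12 and Rpl30 of the large subunit, Rps15a of the small subunit and the paralog Rps27l, and higher was the paralog Rpl3l. Of all genes tested 7.48% passed as lower and 6.78% as higher, so the members' shares of 6.67% and 1.67% were no larger than the background. Among the 686 genes whose mean level was at or above the members' lower quartile, 11.4% passed as lower and 11.1% as higher. The members' shares cover all 60, some of them dimmer than that set. Of the members that passed, Rpl12, Rpl30, Rps15a and Rpl3l were dimmer than that set. The median difference of the 60 members was -0.05 log2, against 0.03 over all genes, and 49 of 60 lay below 0, 37 of them in both experiments. That median rested on single arrays: it was 0.0028 without the experiment 2 array at 6 h with 4OHT and no IL-7, and -0.10 without the experiment 1 array of that group.

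Rpl12 encodes a protein at the base of the stalk, where elongation factors dock. Its level was 10.19 and 10.13 at 6 h with IL-7 and 8.21 and 8.26 without it. The difference was -1.92 ± 0.09 (SE, limma adjusted p = 1.2e-07), or 3.79-fold lower, and it was the largest fall of any member in any comparison. The groups stood far apart in both experiments. This reading rests on 1 probe set of mean level 9.28, which is annotated through 1 sequence record and no RefSeq mRNA.

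Other probe sets for Rpl12 gave another picture. Of 8 sets shared with a second symbol, 7 with mean levels between 13.4 and 13.7 differed by only -0.05 to -0.08 log2 at 6 h. The eighth, of mean level 9.17, differed by -1.89 log2. It is the set whose second symbol is Snora65, a small nucleolar RNA. Every Rpl12 value below is that of the single-symbol probe set, and whether it reports the Rpl12 mRNA was not tested.

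Rpl30 and Rps15a showed the same contrast between probe sets. Rpl30, a large subunit protein, read 10.51 and 10.04 with IL-7 and 9.59 and 9.67 without it, a difference of -0.64 ± 0.13 (SE, limma adjusted p = 0.0048). The groups did not overlap, but the size differed between the experiments, at -0.92 and -0.36. Its 10 shared probe sets, at levels of 12.6 to 13.1, differed by 0.04 to 0.05. Rps15a, a small subunit protein, read 10.06 and 10.19 with IL-7 and 9.82 and 9.70 without it, a difference of -0.36 ± 0.08 (limma adjusted p = 0.0081). Here too the groups were separate, and 2 shared sets at a level of 12.1 differed by -0.03 and -0.04. Without Rpl12, Rpl30 and Rps15a, a choice made after seeing these probe sets, 2 members passed at 6 h, Rps27l and Rpl3l. Without the experiment 2 array at 6 h with 4OHT and no IL-7, 3 members passed in place of 5.

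**Figure D2:**
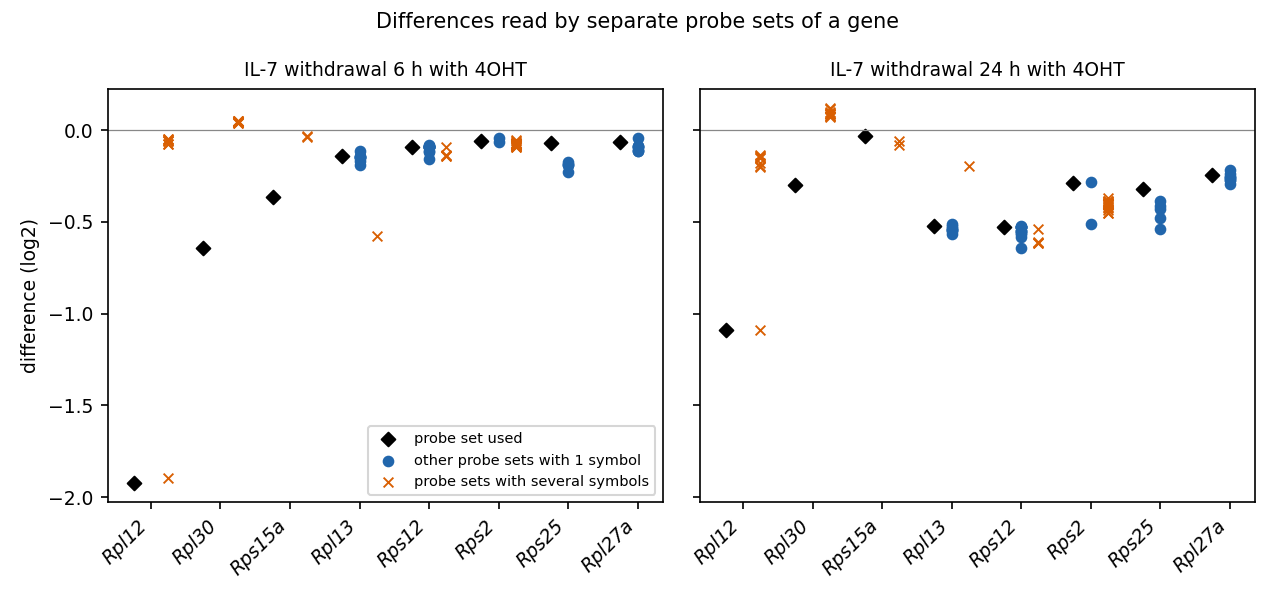
The vertical axis is the log2 difference upon IL-7 withdrawal at 6 h and 24 h with 4OHT, for every probe set of 8 genes. Diamonds are the sets used, circles other sets with the same single symbol, and crosses sets with several symbols. For Rpl12, Rpl30 and Rps15a the crosses lie near 0 at 6 h apart from 1 for Rpl12, and for Rpl13, Rps12, Rps2, Rps25 and Rpl27a the circles lie near the diamonds at 24 h.

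Rps27l and Rpl3l are paralogs of small and large subunit genes. Rps27l, which is known as a p53 target, read 12.63 and 12.44 at 6 h with IL-7 and 12.12 and 11.94 without it. It fell by 0.51 log2 (SE 0.10, limma adjusted p = 0.0057), with -0.51 and -0.50 in the 2 experiments. With 1 array left out its difference ranged from -0.60 to -0.41, and its call did not hold in every such fit. No array without IL-7 reached the lowest with it. Rpl3l, the form of Rpl3 used in heart and skeletal muscle, read 8.58 and 8.84 with IL-7 and 9.86 and 9.94 without it, a rise of 1.19 ± 0.14 (SE, limma adjusted p = 0.00014) or 2.28-fold. Both arrays without IL-7 lay more than a full log2 unit above both with it. Rpl3 itself has no single-symbol probe set here.

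After 24 h without IL-7 and without 4OHT, 5 members were lower and 1 was higher. Lower were Rpl12 and Rpl13 of the large subunit, Rps12 of the small subunit, the stalk gene Rplp1 and the paralog Rps27l, and Rpl3l was again higher. Over all genes 8.78% passed as lower and 11.2% as higher, against 8.33% and 1.67% of the members, and among equally bright genes 18.1% and 18.7% passed. Of the members that passed, Rpl12 and Rpl3l lay below the brightness of that last set. The median of the members was -0.07 log2 against -0.01 over all genes, and 42 of 60 lay below 0, 33 of them in both experiments. With the experiment as a block 10 members passed, 9 of them lower, with Rpl14, Rps21, Rps29 and Rps3 added, where the block passed 12% of all genes as lower and 15.6% as higher.

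The count changed with the processing. After the deposited values were quantile-normalized again, 4 members passed as lower and 4 as higher (11.2% and 10.4% of all genes), Rplp1 no longer passed, and Rpl10, Rpl28 and Rps6 passed as higher. The members' median then became -0.03 and that of all genes -0.06, so that their order turned, and 33 of 60 members lay below 0. With any 1 of the 4 arrays left out, 2 or 3 members passed: Rpl12 and Rpl3l passed each time, and Rpl13, Rps12 and Rplp1 not once. The median was -0.01 without the experiment 2 array at 24 h with neither IL-7 nor 4OHT and -0.11 without the experiment 1 array of that group.

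The same withdrawal with 4OHT present lowered more members. After 24 h 13 members were lower and 1, Rpl3l, was higher. Of the large subunit Rpl12, Rpl13, Rpl8, Rpl4, Rpl27a and Rpl36a fell, of the small subunit Rps12, Rps25, Rps2, Rps29 and Rps3, and beside them the stalk gene Rplp1 and the paralog Rps27l. The 13 made up 21.7% of the members, against 11.5% of all genes passing as lower and 25.8% of the equally bright genes. For higher calls the figures were 1.67% of members, 12.8% of all genes and 19% of equally bright genes. Of the members that passed, Rpl12 and Rpl3l again lay below that brightness, so the members' shares are not limited to equally bright genes. The median member difference was -0.10 log2 against 0.06 over all genes, and 47 of 60 lay below 0, 40 of them in both experiments. Rpl27a, Rps29 and Rps3 lay outside the 8 largest falls and were named after their values were seen. Rpl36a lay outside them too and is named as the main copy of a paralog.

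The count of 14 depended on the processing. It was 9 after renewed quantile normalization, with 7 lower and 2 higher (12.1% and 13% of all genes), where the members' median was -0.04 log2 and 35 of 60 lay below 0. Rpl8, Rpl27a, Rpl36a, Rplp1, Rps2, Rps29 and Rps3 lost their calls there, while Rps21 passed as lower and Rpl10 as higher. With the experiment as a block 18 members passed as lower and 1 as higher, where 14.3% and 18.7% of all genes did. The block added Rpl10a, Rpl14, Rps18, Rps19 and Rps21 (limma adjusted p = 0.0030 with the block, against 0.057 without it, for Rps21). Leaving out single arrays also moved the count of 14. It was 7 without the experiment 1 array at 24 h with IL-7 and 4OHT, and 7 without the experiment 2 array at 24 h with 4OHT and no IL-7. Rpl12, Rpl13, Rpl4, Rps12 and Rps27l passed with each of the 4 arrays left out in turn, and Rpl3l lost its call without either of 2 arrays, the experiment 1 array with 4OHT alone and the experiment 2 array with IL-7 and 4OHT. The median was -0.03 without the experiment 2 array at 24 h with 4OHT alone and -0.17 without the experiment 1 array of that group.

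**Figure D3:**
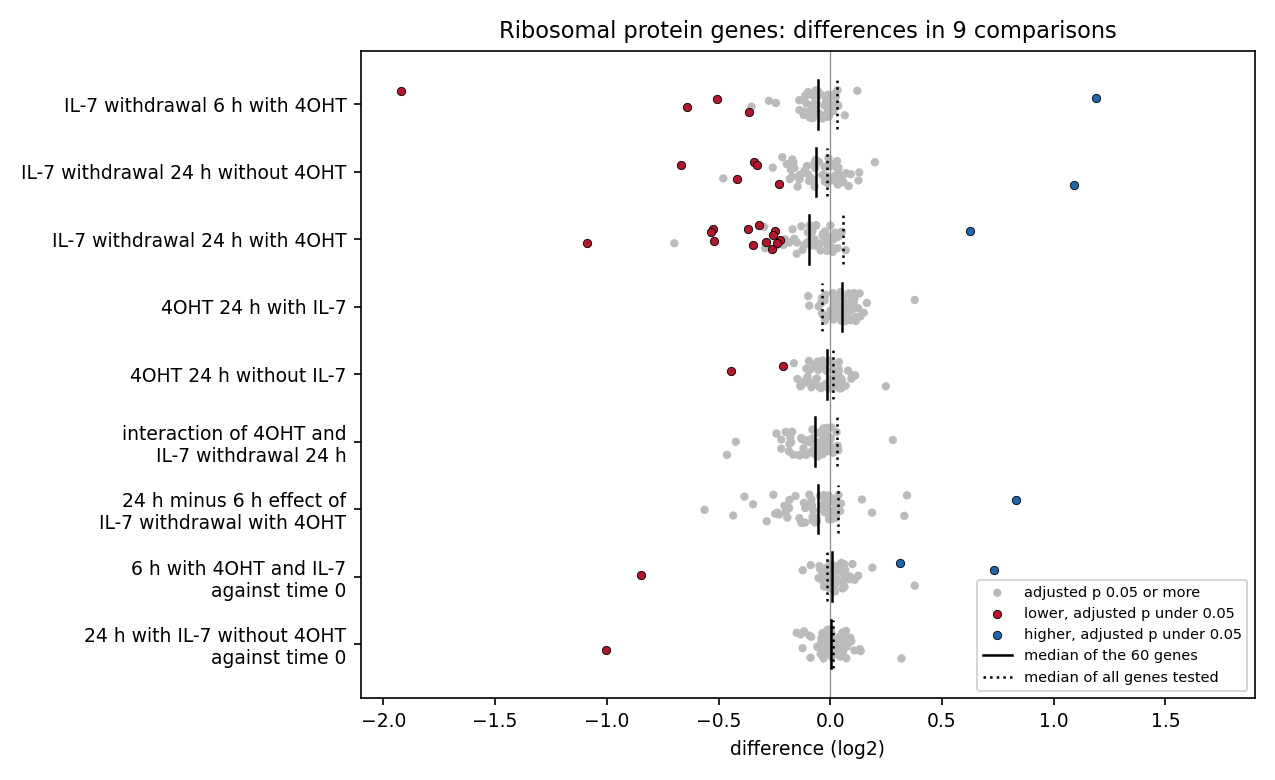
Each point is 1 of the 60 genes, placed by its log2 difference in 1 of 9 comparisons, with small random vertical offsets. Red and blue points passed as lower and higher, solid bars are the median of the 60 genes and dotted bars the median of all 19938 genes. The 13 red points at 24 h with 4OHT lie between -1.09 and -0.23, and all points are grey for 4OHT with IL-7.

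Rpl13, a large subunit protein, was read alike by several probe sets. It read 12.24 and 12.16 at 24 h with IL-7 and 4OHT and 11.85 and 11.51 with 4OHT alone. Without 4OHT it read 12.19 and 12.08 with IL-7 and 11.83 and 11.76 without it. In both cases every array without IL-7 was below every array with it. The differences were -0.52 ± 0.11 with 4OHT (SE, limma adjusted p = 0.0033) and -0.34 ± 0.11 without it (adjusted p = 0.042), and 8 other single-symbol probe sets gave -0.51 to -0.56 with 4OHT. A dimmer set shared with another symbol gave -0.19. At 6 h its difference was -0.14 and did not pass.

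Rpl12 lay at 9.74 and 9.75 at 24 h with IL-7 alone and at 9.16 and 8.98 without IL-7 or 4OHT. With 4OHT it lay at 9.73 and 9.71 with IL-7 and at 8.75 and 8.51 without it. Groups with and without IL-7 did not overlap, and the fall was smaller than at 6 h. The differences were -0.67 ± 0.09 without 4OHT (limma adjusted p = 0.00023) and -1.09 ± 0.09 with it (adjusted p = 3.8e-06), while the 7 bright shared probe sets gave -0.05 to -0.10 in the first of these and -0.13 to -0.20 in the second.

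Rpl8 and Rpl4 lie near the peptidyl transferase centre and along the exit tunnel of the large subunit. Rpl8 read 12.68 and 12.51 at 24 h with IL-7 and 4OHT and 12.37 and 12.09 with 4OHT alone, a difference of -0.37 ± 0.11 (limma adjusted p = 0.033). Rpl4 read 12.65 and 12.59 against 12.33 and 12.22, a difference of -0.34 ± 0.07 (limma adjusted p = 0.0046). Neither gene's groups overlapped, and Rpl8 had a limma adjusted p of 0.052 after renewed quantile normalization. Rpl27a and Rpl36a, also of the large subunit, differed by -0.25 ± 0.08 (limma adjusted p = 0.048) and -0.23 ± 0.07 (limma adjusted p = 0.045), close to the threshold. The 8 other probe sets of Rpl27a gave -0.22 to -0.29.

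Rpl14, another large subunit gene, had a difference of -0.70 that did not pass, and it is named after its values were seen. It read 10.52 and 10.01 at 24 h with IL-7 and 4OHT and 9.75 and 9.38 with 4OHT alone, with an SE of 0.24 and a limma adjusted p of 0.058. Its experiment 2 array lay below its experiment 1 array in each of the 7 groups. With the experiment as a block its adjusted p was 0.00068.

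Among small subunit genes Rps12 moved most at 24 h. It read 12.85 and 12.82 with IL-7 and 4OHT and 12.44 and 12.18 with 4OHT alone. Without 4OHT it read 12.82 and 12.71 with IL-7 and 12.52 and 12.36 without it. Arrays with and without IL-7 were separate in both settings. The differences were -0.53 ± 0.10 with 4OHT (SE, limma adjusted p = 0.0027) and -0.33 ± 0.10 without it (adjusted p = 0.043). The 13 other single-symbol probe sets gave -0.52 to -0.64 with 4OHT, although probe sets of a gene can share sequence and are not independent.

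Rps2 lies near the entry of the mRNA channel. It read 13.57 and 13.49 with IL-7 and 4OHT and 13.19 and 13.29 with 4OHT alone, a difference of -0.29 ± 0.07 (SE, limma adjusted p = 0.0061). The groups did not overlap, and 17 shared probe sets gave -0.37 to -0.45. Renewed quantile normalization gave -0.15 (limma adjusted p = 0.12) for Rps2, and its call was lost in 2 of 4 fits with 1 array left out. Rps25, which some viral RNAs need to start translation, read 12.91 and 12.80 against 12.61 and 12.46, a difference of -0.32 ± 0.08 (limma adjusted p = 0.015). Its 5 other probe sets gave larger falls, of -0.39 to -0.54. Rps29 differed by -0.25 ± 0.08 (limma adjusted p = 0.043) and Rps3, another protein of the mRNA entry, by -0.24 ± 0.07 (limma adjusted p = 0.029).

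The stalk, which recruits elongation factors, has 3 genes. Rplp1 read 13.58 and 13.59 at 24 h with IL-7 and 4OHT and 13.35 and 13.31 with 4OHT alone. Without 4OHT it read 13.62 and 13.61 against 13.39 and 13.38. Neither pair of groups overlapped. The differences were -0.26 ± 0.06 (SE, limma adjusted p = 0.0083) and -0.23 ± 0.06 (adjusted p = 0.020), and the other Rplp1 probe set gave -0.46 with 4OHT. After renewed quantile normalization Rplp1 differed by -0.12 with 4OHT (limma adjusted p = 0.16) and by -0.15 without it (limma adjusted p = 0.080). Rplp0 and Rplp2 passed in none of the 9 comparisons, with differences of -0.13 to 0.07 and of -0.16 to 0.10. Rplp2 was read from 1 probe set of mean level 8.04, against 13.8 for Rplp0 and 13.5 for Rplp1. Whether that dim set reports the Rplp2 mRNA was not tested.

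The 7 paralogs did not move together. Rps27l read 12.50 and 12.46 at 24 h with IL-7 and 4OHT and 11.98 and 11.90 with 4OHT alone, a difference of -0.54 ± 0.10 (SE, limma adjusted p = 0.0024). Without 4OHT it differed by -0.42 ± 0.10 (limma adjusted p = 0.013). That difference ranged from -0.50 to -0.34 with 1 array left out, and the call did not hold in every such fit. The Rps27l groups with and without IL-7 were separate at both times. Rpl3l read 9.09 and 8.77 at 24 h with IL-7 and 4OHT and 9.64 and 9.47 with 4OHT alone, a rise of 0.63 ± 0.14 (limma adjusted p = 0.0065). Without 4OHT it read 8.75 and 8.36 against 9.74 and 9.55, a rise of 1.09 ± 0.14 (limma adjusted p = 0.00023). Rpl3l was thus higher in each group without IL-7 than in the group of the same time and 4OHT state with it. At 24 h its group means without IL-7 were 9.64 without 4OHT and 9.56 with it, against 9.56 at time 0 (9.57 and 9.55). With IL-7 at 24 h they were 8.55 without 4OHT and 8.93 with it, below time 0. Groups without IL-7 were not tested against time 0. Rpl3l is the sole member with a rise that passed upon withdrawal in the deposited values.

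The other 5 paralogs passed in none of the 9 comparisons. Their differences spanned -0.27 to 0.19 for Rpl7l1, -0.26 to 0.28 for Rpl10l, -0.17 to 0.20 for Rpl32l, -0.14 to 0.12 for Rpl39l and -0.10 to 0.07 for Rps4l. Rpl10l and Rpl39l are known from the testis. The mean levels of Rpl39l (4.82), Rpl10l (7.45) and Rps4l (7.57) lay below or near the median level of all genes, 7.52. Whether these genes were expressed at all was not tested, so the absence of a call does not show a stable mRNA. Rpl7l1 passed as lower for withdrawal at 6 h with the experiment as a block (limma adjusted p = 0.0074, against 0.095 without the block). Of main copies that were measured, Rpl7 spanned -0.03 to 0.04, Rpl10 -0.02 to 0.05 and Rps4x -0.15 to 0.11, and none of these passed. Rpl22 and Rpl26, whose paralogs are not members, spanned -0.24 to 0.13 and -0.09 to 0.03 and did not pass either. Rpl3, Rps27 and Rpl39 have shared probe sets alone, so that their paralogs could not be set beside them.

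**Figure D4:**
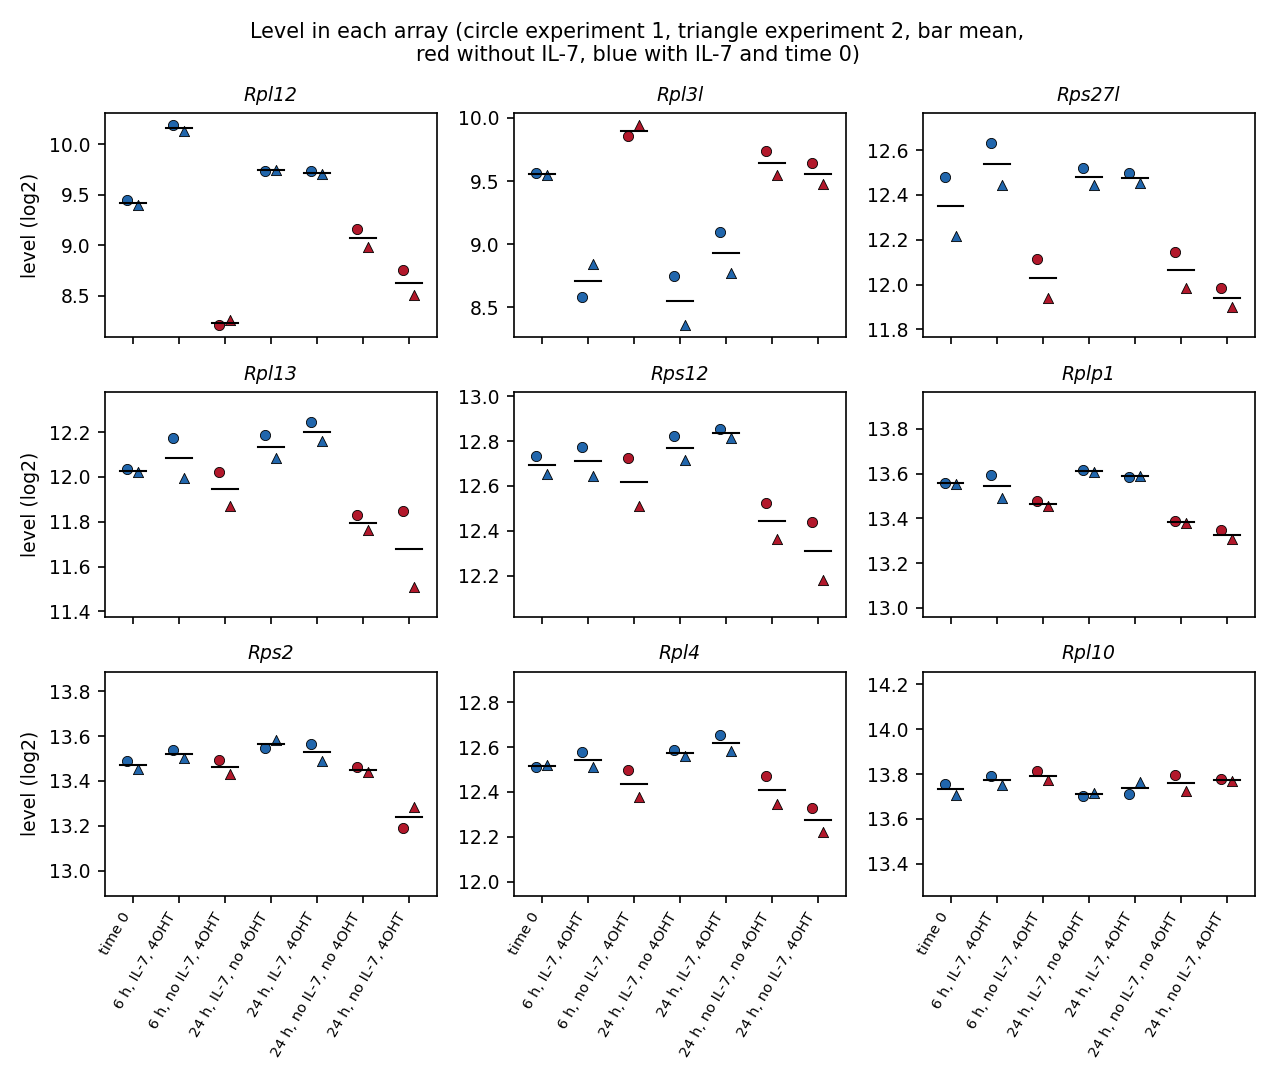
The log2 level of 9 genes is shown on every array, with a separate vertical scale in each panel, a circle for experiment 1, a triangle for experiment 2 and a bar for the group mean. Groups without IL-7 are red and the others blue. At 24 h red points lie below blue points for Rpl13, Rps12 and Rplp1, above them for Rpl3l, and within 0.1 log2 of them for Rpl10.

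Upon withdrawal the probe sets of lowest signal varied most. The 11 members below a level of 11 had a median absolute difference of 0.24 log2 at 6 h. The 8 between 11 and 12 had 0.10, the 19 between 12 and 13 had 0.06, and the 22 at 13 or above had 0.03. At 24 h with 4OHT the same classes had 0.24, 0.14, 0.15 and 0.07, so the order by signal was not steady. Of the 13 members that fell there 8 lay between 12 and 13 and 3 at 13 or above. The highest probe set of any array lay at 14.2 to 14.3. Signal levels of different probe sets are not amounts of RNA, and whether bright probe sets understate changes was not tested.

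**Figure D5:**
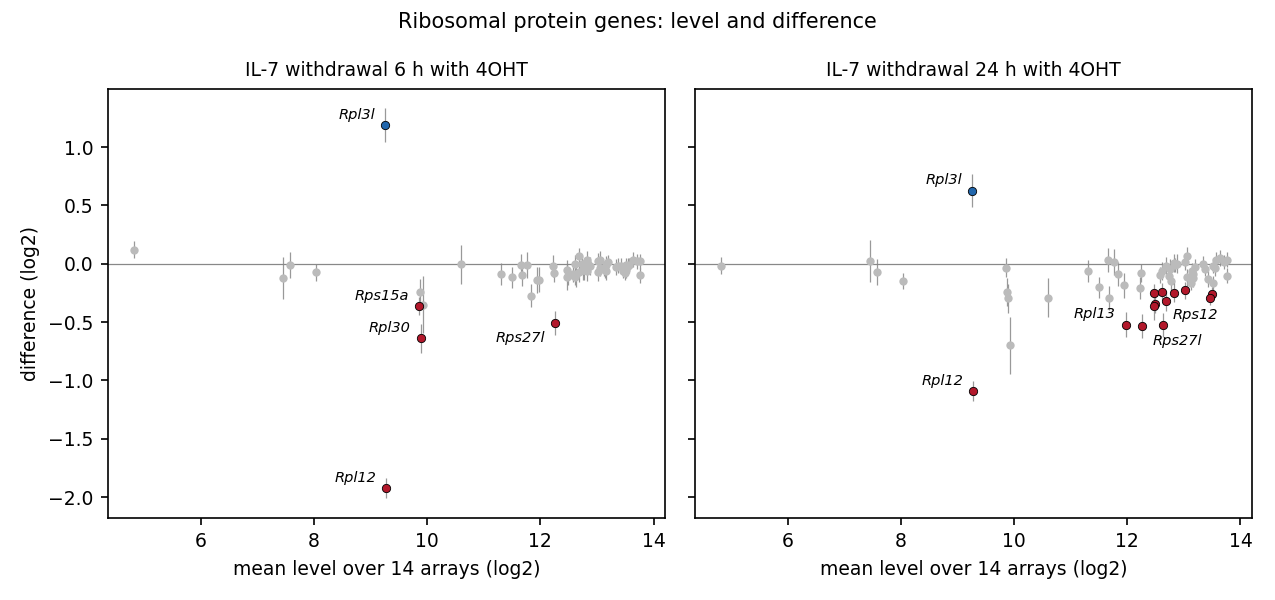
Each point is 1 of the 60 genes, with its mean log2 level on the horizontal axis and its log2 difference ± SE on the vertical axis, for IL-7 withdrawal at 6 h and at 24 h with 4OHT. Red points passed as lower, blue as higher and grey did not pass. At 6 h the points at levels of 13 and above lie within 0.10 of 0, and at 24 h 8 red points lie between 12 and 13.

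Switching on the Ikaros fusion for 24 h in the presence of IL-7 gave no member that passed in limma. Over all genes 5.22% passed as higher and 3.94% as lower. At an unadjusted p under 0.05 there was 1 member, Rpl3l, at 0.38, against 2189 genes higher and 2383 lower of all 19938. The median of the members was 0.05 log2 against -0.04 over all genes, with 11 of 60 below 0. Without the experiment 1 array at 24 h with IL-7 alone, 1 member passed.

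Without IL-7, 4OHT lowered 2 members and raised none, where 8.17% of all genes passed as lower and 7.1% as higher. Rpl12 went from 9.16 and 8.98 to 8.75 and 8.51, a difference of -0.44 ± 0.09 (SE, limma adjusted p = 0.0037). Rps2 went from 13.46 and 13.44 to 13.19 and 13.29, a difference of -0.21 ± 0.07 (limma adjusted p = 0.047). Neither gene's arrays overlapped, and the median of all members was -0.02 log2 against 0.01 over all genes. With any 1 of the 4 arrays left out, 0 or 1 member passed, and Rps2 lost its call each time.

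Whether 4OHT changed the response to withdrawal at 24 h was tested as an interaction. No member passed in limma, where 0.617% of all genes passed as lower and 0.0702% as higher. At an unadjusted p under 0.05 there were 2 members, both lower, against 932 genes lower and 894 higher of all 19938. The members' median was -0.07 log2 against 0.03 over all genes, and 50 of 60 lay below 0. It was 1e-05 without the experiment 2 array at 24 h with 4OHT alone and -0.14 without the experiment 1 array of that group, and after renewed quantile normalization it was -0.04 with 38 of 60 below 0. The larger number of falls with 4OHT was not matched by a member whose fall differed between the settings past the threshold.

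Setting withdrawal at 24 h against that at 6 h, with 4OHT throughout, gave 1 member. The fall of Rpl12 was smaller at 24 h, by 0.83 ± 0.12 (SE, limma adjusted p = 0.0014). Over all genes 1.36% passed as higher and 3.65% as lower. With the experiment as a block 3 members passed, where 3.91% of all genes were higher and 5.98% lower. The added members were Rpl13, at -0.38 (limma adjusted p = 0.038 with the block), and Rps12, at -0.43 (limma adjusted p = 0.010 with the block), which fell further at 24 h. Without the experiment 1 array at 24 h with 4OHT and no IL-7, or the experiment 2 array at 6 h with IL-7 and 4OHT, 2 members passed. The members' median of -0.05 became 0.01 after renewed quantile normalization, and ranged from -0.11 to 0.01 with 1 array left out.

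Culture with IL-7 was set against time 0 as well. These comparisons share arrays with those above. After 6 h with IL-7 and 4OHT, Rpl12 was higher by 0.73 ± 0.09 (SE, limma adjusted p = 0.0002) and Rps15a by 0.31 ± 0.08 (limma adjusted p = 0.026). Rpl3l was lower by -0.85 ± 0.14 (limma adjusted p = 0.0023). Over all genes 3.92% were higher and 4.85% lower. Rpl30 passed too when the experiment was a block, as higher by 0.38 (limma adjusted p = 0.036 with the block). The time 0 arrays read 9.45 and 9.40 for Rpl12, between the levels with and without IL-7 at 6 h, and 9.57 and 9.55 for Rpl3l, above both 6 h arrays with IL-7.

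After 24 h with IL-7 and no 4OHT, 1 member passed against time 0, where 0.737% of all genes were higher and 2.36% lower. Rpl3l was lower by -1.0 ± 0.14 (SE, limma adjusted p = 0.0049). With the experiment as a block 2 members passed, Rpl12 being added as higher by 0.32 (limma adjusted p = 0.019 with the block), where 3.16% of all genes were higher and 7.15% lower. Without the experiment 2 array at 24 h with IL-7 alone, 0 members passed.

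Genes for ribosome assembly had larger median differences than the ribosomal protein genes on the same arrays. Of 20 genes for nucleolar RNA processing 19 fell at 6 h, 17 at 24 h without 4OHT and 19 at 24 h with it, with medians of -1.62, -0.69 and -1.36 log2. Polr1b, a subunit of RNA polymerase I, fell by 2.44 log2 at 6 h (SE 0.10, limma adjusted p = 7e-08), and Gnl3, the nucleolar protein nucleostemin, by 2.27 (SE 0.10, limma adjusted p = 8.7e-08). Of 21 genes for ribosomal protein chaperones and subunit assembly 16, 12 and 14 fell, with medians of -0.82, -0.34 and -0.52. Tsr1, a factor of small subunit maturation, fell by 2.04 log2 at 6 h (SE 0.12, limma adjusted p = 6.4e-07). The medians of the ribosomal protein genes in the same 3 comparisons were -0.05, -0.07 and -0.10, and those of all genes 0.03, -0.01 and 0.06. Of all genes 7.48%, 8.78% and 11.5% passed as lower in these comparisons. The sets also differed in signal, with mean levels of 10.2 for Polr1b and Gnl3 and 9.51 for Tsr1, against a median of 12.7 for the members. The 11 members below a level of 11 had a median absolute difference of 0.24 log2 at 6 h. Whether signal level had a part in the gap was not tested.

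Of 15 initiation factors 10, 9 and 10 fell, with medians of -0.41, -0.35 and -0.47, and Eif3b, a subunit of the initiation factor that binds the small subunit, fell by 0.95 log2 at 6 h (SE 0.10, limma adjusted p = 3.6e-05). Of 4 elongation factors 1, 1 and 2 fell, with medians of -0.04, -0.11 and -0.24. Of 14 further genes with a terminal oligopyrimidine tract 1 rose at 6 h, 1 fell at 24 h without 4OHT and 3 fell with it, Npm1 by 0.93 log2 (SE 0.16, limma adjusted p = 0.0012) among them. Vim was both the gene that rose at 6 h, by 0.37 log2, and the gene that fell at 24 h without 4OHT, by 0.51. It also fell at 24 h with 4OHT, by 0.88 (SE 0.08 in each case). The shares of all genes were 6.78% higher and 7.48% lower at 6 h, and 8.78% and 11.5% lower at 24 h without and with 4OHT. In the block fit 5 of these 14 fell in each 24 h comparison, where 12% and 14.3% of all genes did. Rpsa, a small subunit protein whose symbol is outside the rule, fell by 0.46 (SE 0.11, limma adjusted p = 0.0093) and 0.67 (SE 0.11, limma adjusted p = 0.00071) at 24 h without and with 4OHT.

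Among 18 regulators of mTORC1 and of oligopyrimidine mRNAs, 4 rose and 3 fell at 6 h, 4 rose and 3 fell at 24 h without 4OHT, and 6 rose and 4 fell with it. Of all genes 6.78%, 11.2% and 12.8% rose and 7.48%, 8.78% and 11.5% fell. Under 4OHT itself 4 rose and 1 fell with IL-7 (5.22% and 3.94% of all genes), and 5 rose and 4 fell without it (7.1% and 8.17%). Larp1, which binds these mRNAs, fell by 0.81 log2 at 6 h (SE 0.07, limma adjusted p = 1.5e-05). Ddit4, an inhibitor of mTORC1, rose by 0.59 log2 (SE 0.09, limma adjusted p = 0.00076) at 6 h and by 0.72 (SE 0.09, limma adjusted p = 0.00027) under 4OHT with IL-7. Of 2 measured host genes of small nucleolar RNAs, both fell at 6 h: Snhg5 by 0.99 (SE 0.10, limma adjusted p = 4.9e-05) and Gas5 by 0.59 (SE 0.10, limma adjusted p = 0.0018).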

How the data were processed

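The authors deposited log2 expression values for 35556 probe sets on 14 arrays, made with RMA in Affymetrix Expression Console 1.1, per the submitters' processing notes. For its settings and for the genome build, the value is not given in the sources used here. RMA gives all arrays a like distribution, so a change shared by all genes is not seen. No read depth exists for arrays, and 2 arrays per group limit the precision. Of the probe sets 21789 had 1 symbol, 1621 several and 12146 were unlisted. The brightest single-symbol probe set stood for each of 19938 genes.

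The deposited log2 values were fitted with limma 3.58.1 in R 4.3.3, with a mean per group over all 14 arrays, and moderated two-sided p-values were adjusted by Benjamini-Hochberg over all genes. The labels number 2 independent experiments. Deviations of arrays with the same number correlated at 0.124 to 0.631 (median 0.392) over 21 pairs of groups, so the numbers pair the arrays, and a fit with the experiment as a block was an alternative. Others were renewed quantile normalization, a variance trend, the compared arrays alone and each array left out. Equally bright genes, other probe sets and the omission of Rpl12, Rpl30 and Rps15a were chosen after seeing the data.

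The members and all gene lists were chosen with earlier results of these data known. Named were up to 8 members per direction and comparison with the largest difference among those that passed, all paralogs and their main copies, and the stalk genes. The fit was tested on simulated data.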

Additional observations from a re-analysis of the deposited data

Results flagged for a closer look

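The IL-7 withdrawal effect on Rpl12 differed between 6 h and 24 h in the presence of 4OHT, by a test of the difference itself: 0.83 log2 (SE 0.12, limma adjusted p = 0.0014), with falls of 1.92 at 6 h and 1.09 at 24 h. The value comes from the dim single-symbol probe set, and the 7 bright probe sets shared with another symbol gave -0.05 to -0.08 at 6 h and -0.13 to -0.20 at 24 h.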

How the results depend on the processing

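Of 347 alternatives of the 32 named results that passed, 276 still passed, 71 did not and 0 turned direction; some named differences near 0 that had not passed, such as those of Rplp0, Rpl22 and Rpl7l1, changed sign. With the experiment as a block, 10 ribosomal protein genes passed for withdrawal at 24 h without 4OHT (6 without the block), 3 for the later against the earlier withdrawal (1) and 2 for 24 h with IL-7 against time 0 (1), and the block moved no other count of members by over 1.5 times. Over all genes the block gave 3324 for 4OHT with IL-7 (1826), 449 for the interaction (137), 1972 for the later against the earlier withdrawal (998), 2999 for 6 h against time 0 (1748) and 2056 for 24 h against time 0 (617), and the compared arrays alone gave 884 and 128 for the last 2. Renewed quantile normalization gave 9 members at 24 h with 4OHT and 1 for 4OHT without IL-7. Fits of the compared arrays alone gave 3 members at 6 h, 8 at 24 h with 4OHT and 1 for 4OHT without IL-7. Without Rpl12, Rpl30 and Rps15a, chosen after seeing the data, the counts were 2 at 6 h, 1 for 4OHT without IL-7, 0 for the later against the earlier withdrawal and 1 for 6 h against time 0. The 15 members that differed between experiments became 9 after quantile normalization and 24 with a variance trend. With 1 array left out at a time, the counts ranged from 3 to 5 for withdrawal at 6 h, from 2 to 3 at 24 h without 4OHT, from 7 to 16 at 24 h with it, from 0 to 1 for 4OHT with IL-7, from 0 to 1 without it, from 1 to 2 for the later against the earlier withdrawal, from 2 to 3 for 6 h against time 0 and from 0 to 1 for 24 h against time 0. Over all genes the same fits gave at the lowest 39 for 24 h against time 0, 847 for 4OHT with IL-7, 1841 without it (3045 with all arrays), 1067 for 6 h against time 0, 1490 for withdrawal at 6 h (2844), 2279 at 24 h without 4OHT (3982), 50 for the interaction and 591 for the later against the earlier withdrawal. Fewer arrays enter each of those fits. The cause of the other changes was not tested.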
